A study of Mus musculus with 6 samples.

Results

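Transcript levels of 8 genes whose proteins join cells of the fetal ovary were compared between WT and Hnrnpl-null mice at E18.5. They are the cadherin genes Cdh1 and Cdh2, the catenin genes Ctnnb1, Ctnna1 and Ctnnd1, the epithelial adhesion gene Epcam, and the connexin genes Gja1 and Gja4. They were taken by name from the 25239 rows of the deposited count table, and all 8 passed the filter on low counts that left 14849 genes. Of the 8, only Gja4 was called, and it fell to 22.1% of its WT level. By comparison, 4.46% of the 14849 genes were called in either direction, and 1.79% as lower in Hnrnpl-null. With WT replicate 2 taken out of the fit, Gja4 missed the threshold of 0.05 (edgeR adjusted p = 0.074).

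In the perinatal mouse ovary, oocytes lie in germ cell cysts (nests), wrapped by somatic pregranulosa cells, and the cysts break apart into primordial follicles. Classical cadherins hold neighbouring cells together by binding cadherins of the same kind across the gap, and catenins tie their cytoplasmic tails to actin. Connexins assemble into gap junction channels, through which oocytes and granulosa cells exchange small molecules. E-cadherin, the product of Cdh1, is known from the mouse cyst as a protein of germ cell contacts, and connexin products of Gja4 and Gja1 are known from growing mouse follicles, the first from oocytes and the second from granulosa cells.

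The libraries were 3 of genotype WT and 3 of genotype Hnrnpl-null, all from E18.5 ovaries of the C57BL/6 strain. Hnrnpl encodes a ribonucleoprotein that binds RNA and regulates splicing. The titles of the Hnrnpl-null libraries carry the abbreviation CKO, and the labels name neither a Cre driver, nor the exons removed, nor whether ovaries were pooled. Ovaries were digested with Liberase and DNase before libraries were made from total RNA, and the labels do not state that each library is a separate animal. The p-values thus rest on the variation among these libraries, which may be technical.

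Hnrnpl was at 172, 169 and 145 CPM (counts relative to the TMM-scaled size of the library) in the WT libraries (replicates 1 to 3) and at 166, 173 and 213 CPM in the Hnrnpl-null libraries, so its summed count does not check the labels. Total counts ran from 8949781 to 22401419 per library. The ribosomal precursor Rn45s took 83.0% of WT replicate 1 and 86.1% of Hnrnpl-null replicate 3, against 18.6% to 36.0% of the others, and left 3818414 and 1757572 counts for all other genes in those 2 libraries. The cell type label reads oocyte, but the summed level of 8 stromal markers (6020 to 6522 CPM in WT) was far above that of 10 germ cell markers (226 to 244 CPM in WT). Each value below is therefore a level in a mixed ovarian cell suspension. Over all 14849 genes, 266 (1.79%) were lower and 397 (2.67%) higher in Hnrnpl-null at an edgeR quasi-likelihood adjusted p below 0.05, a split that became 132 lower and 123 higher with Rn45s left out and libraries scaled by their totals alone.

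Gja4, a connexin gene of oocytes and of arterial endothelium, was the only member called. It stood at 4.48, 7.21 and 5.93 CPM in the WT libraries (replicates 1 to 3) and at 1.56, 1.29 and 0.625 CPM in the Hnrnpl-null libraries. The lowest WT library stood above the highest Hnrnpl-null library, a separation in that direction found for 13.2% of all tested genes. The means were 5.87 ± 1.37 CPM (SD, n = 3) and 1.16 ± 0.482 CPM (SD, n = 3), and the log2 fold change was -2.18 ± 0.39 (SE), with an edgeR adjusted p of 0.0061. The Hnrnpl-null to WT ratio was 0.221 (95% interval 0.123 to 0.395). In a bulk sample, fewer cells that carry the transcript and less transcript per cell cannot be told apart.

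The counts behind these levels were small. Gja4 had 34, 174 and 86 counts in WT replicates 1 to 3 and 37, 34 and 2 counts in Hnrnpl-null replicates 1 to 3, and most low counts were even, as when both mates of a pair are counted. The value of Hnrnpl-null replicate 3 thus rests on about 1 read pair. Without WT replicate 2, which was the highest WT library, the log2 fold change was -2.02 and the call was lost (edgeR adjusted p = 0.074). Without both libraries rich in Rn45s it was -2.20 (edgeR adjusted p = 0.0011).

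Gja1, the connexin gene of granulosa and many other somatic cells, was not called. It stood at 83.0, 80.1 and 81.0 CPM in the WT libraries (replicates 1 to 3) and at 84.4, 107 and 79.4 CPM in the Hnrnpl-null libraries. The WT libraries lay close together and the Hnrnpl-null libraries on both sides of them. The Hnrnpl-null to WT ratio was 1.11 (95% interval 0.925 to 1.34, edgeR adjusted p = 0.56). Within a library, the ratio of Gja4 to Gja1 counts per kb of exon was 0.105 to 0.168 in WT and 0.0237 to 0.0359 in Hnrnpl-null, with 2 counts added to each gene. The difference of the mean log2 ratio was -2.21, and -1.66 with 10 counts added.

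The promoters of the called and the uncalled connexin gene are shown side by side, as RefSeq-derived windows of GRCm38.p6 that hold 250 bases before the annotated start and 20 from it on. Capitals mark E-boxes, the sites (CANNTG, which reads alike on both strands) bound by the class of factors to which the oocyte regulators Figla and Sohlh1 belong. The Gja4 window is chr4:127314020-127314289 on the minus strand and the Gja1 window is chr10:56377050-56377319 on the plus strand.
Gja4: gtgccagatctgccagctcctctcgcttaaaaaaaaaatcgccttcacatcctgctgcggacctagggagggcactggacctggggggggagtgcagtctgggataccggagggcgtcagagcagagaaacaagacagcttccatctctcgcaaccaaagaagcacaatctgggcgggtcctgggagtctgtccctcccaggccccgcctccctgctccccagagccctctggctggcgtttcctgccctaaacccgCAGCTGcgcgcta
Gja1: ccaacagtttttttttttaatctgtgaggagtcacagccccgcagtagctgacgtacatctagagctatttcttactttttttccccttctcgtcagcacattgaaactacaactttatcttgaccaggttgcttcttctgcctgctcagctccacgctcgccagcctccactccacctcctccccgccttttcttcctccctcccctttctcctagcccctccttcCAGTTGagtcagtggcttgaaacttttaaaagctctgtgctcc
The E-box of Gja4 begins 7 bases after the start base and that of Gja1 begins 23 bases before it. An E-box is in 68.9% of all 32851 promoter windows of the same length, so its presence sets neither gene apart. The core TAATTG, a sequence bound by the oocyte homeobox factor Nobox, was searched on both strands and is in neither window, against 7.5% of all windows. GC content was 61.5% in the Gja4 window and 49.3% in the Gja1 window. The table held promoters for 5 of the 8 genes, and Cdh1, Cdh2 and Ctnna1 had no entry.

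**Figure D1:**
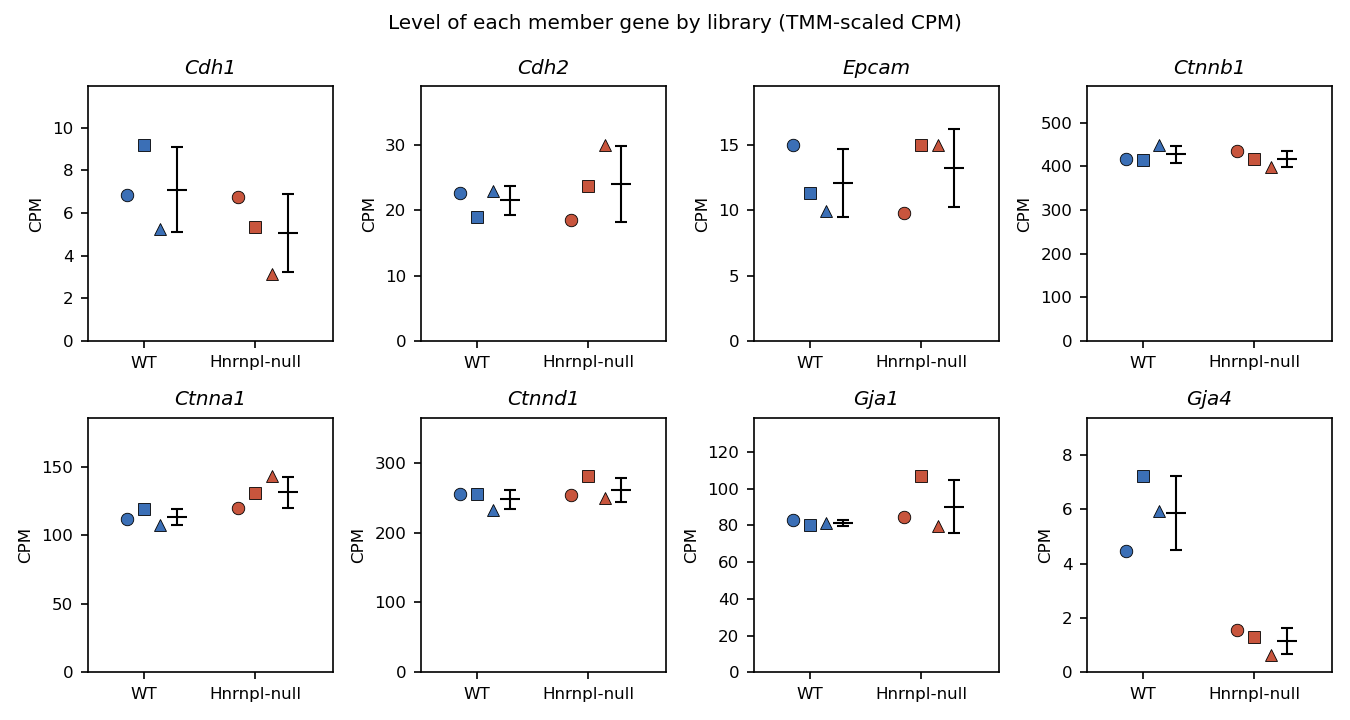
Level of each of the 8 genes in CPM (y axis, from 0, with a scale of its own in each panel) in the 3 WT libraries (blue) and 3 Hnrnpl-null libraries (red). Circles, squares and triangles are replicates 1, 2 and 3, and the bar gives the mean ± SD of each group. Gja4 separates the groups widely, from 4.48 CPM or more in WT to 1.56 CPM or less in Hnrnpl-null, while the points of Cdh1, Cdh2, Epcam, Ctnnb1, Ctnnd1 and Gja1 overlap between groups.

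Cdh1, which encodes E-cadherin, had the lowest level per kb of the 8 genes in WT and was not called. It stood at 6.85, 9.20 and 5.24 CPM in the WT libraries (replicates 1 to 3) and at 6.75, 5.33 and 3.12 CPM in the Hnrnpl-null libraries. The groups overlapped, and the highest value was that of a WT library. The Hnrnpl-null to WT ratio was 0.757 (95% interval 0.476 to 1.20, edgeR adjusted p = 0.54). A fall to below 0.476 of WT is outside that interval, and smaller changes lie within it. Hnrnpl-null replicate 3 held 10 counts.

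Cdh2, which encodes N-cadherin, was not called either. It stood at 22.7, 18.9 and 22.9 CPM in the WT libraries (replicates 1 to 3) and at 18.46, 23.6 and 30.0 CPM in the Hnrnpl-null libraries. Both the lowest and the highest library were Hnrnpl-null. The Hnrnpl-null to WT ratio was 1.09 (95% interval 0.833 to 1.43, edgeR adjusted p = 0.77). The ratio of Cdh1 to Cdh2 counts per kb within a library was 0.254 to 0.534 in WT and 0.134 to 0.402 in Hnrnpl-null, and these ranges overlap.

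Epcam encodes a membrane glycoprotein of epithelial and germ cells that binds itself and associates with claudins. It stood at 15.0, 11.4 and 9.92 CPM in the WT libraries (replicates 1 to 3) and at 9.82, 15.0 and 15.0 CPM in the Hnrnpl-null libraries. The 2 groups covered almost the same range. The Hnrnpl-null to WT ratio was 1.09 (95% interval 0.773 to 1.54, edgeR adjusted p = 0.83).

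The 3 catenins were the most abundant of the 8 per kb. Their coefficients of variation were 4.43% to 8.68% within a group, while that of Gja1 was 1.82% in WT and 16.1% in Hnrnpl-null. Ctnnb1 encodes beta-catenin, which binds the cadherin tail and also carries WNT signals to the nucleus. It stood at 417, 416 and 449 CPM in the WT libraries (replicates 1 to 3) and at 434, 416 and 397 CPM in the Hnrnpl-null libraries, and the groups overlapped. The Hnrnpl-null to WT ratio was 0.974 (95% interval 0.812 to 1.17, edgeR adjusted p = 0.91).

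Ctnnd1 encodes the catenin that binds the cadherin tail near the membrane and keeps cadherins at the cell surface. It stood at 256, 256 and 232 CPM in the WT libraries (replicates 1 to 3) and at 254, 280 and 249 CPM in the Hnrnpl-null libraries. The groups overlapped, with a ratio of 1.05 and a 95% interval of 0.889 to 1.25 (edgeR adjusted p = 0.78).

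Ctnna1 encodes alpha-catenin, the actin-binding link of the complex. It stood at 112, 120 and 108 CPM in the WT libraries (replicates 1 to 3) and at 120, 131 and 143 CPM in the Hnrnpl-null libraries. Every Hnrnpl-null library stood above every WT library, though the highest WT and the lowest Hnrnpl-null library differed by less than 1 CPM. Among all tested genes, 12.4% had groups separated in that direction. The ratio was 1.16 (95% interval 0.981 to 1.37), and the gene was not called (edgeR adjusted p = 0.34).

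**Figure D2:**
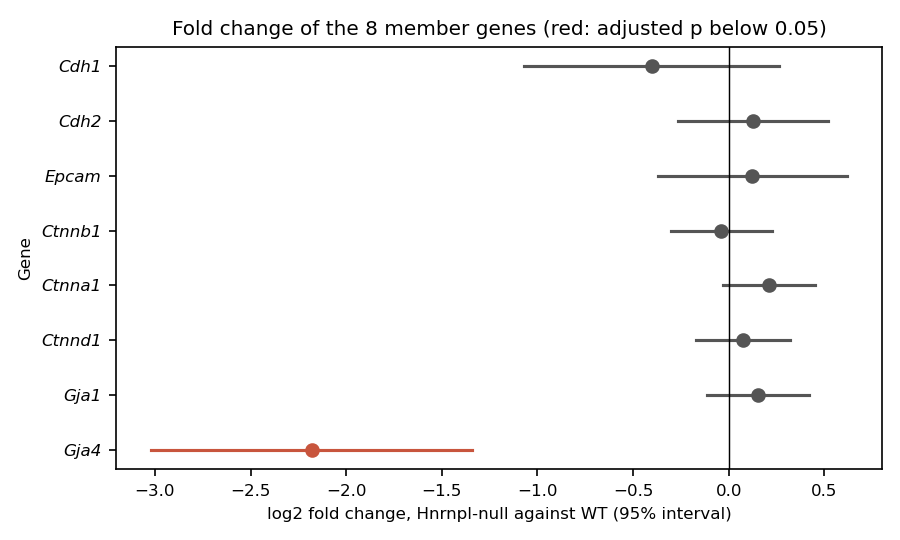
The log2 fold change of Hnrnpl-null against WT (x axis) for each of the 8 genes (y axis), with its 95% interval as a line. Red marks an edgeR adjusted p below 0.05. The interval of Gja4 lies wholly below 0 around -2.18, and the intervals of the other 7 genes contain 0.

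The order of levels was nearly the same in both groups. Per kb of exon, the WT means were 118 CPM per kb for Ctnnb1, 44.4 for Ctnnd1, 30.8 for Ctnna1, 26.2 for Gja1, 5.87 for Epcam, 4.44 for Cdh2, 3.48 for Gja4 and 1.60 CPM per kb for Cdh1. Of the neighbours in that order, the WT libraries of Cdh2 and Gja4 overlapped and those of the other pairs did not. In Hnrnpl-null the means were 115 CPM per kb for Ctnnb1, 46.8 for Ctnnd1, 35.7 for Ctnna1, 29.0 for Gja1, 6.44 for Epcam, 4.96 for Cdh2, 1.14 for Cdh1 and 0.688 CPM per kb for Gja4. There the libraries of Ctnna1 and Gja1, of Epcam and Cdh2, and of Cdh1 and Gja4 overlapped. Among all tested genes, Gja4 went from percentile 47.4 of the WT level per kb to percentile 15.8 of the Hnrnpl-null level, while Ctnnb1 stood at percentiles 99.4 and 99.2.

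Markers of the cells that could carry these transcripts moved as follows, as counts and summed levels. All 9 tested germ cell markers fell (9 of 10 listed, with Stra8 below the filter), as edgeR, DESeq2 and limma-voom all called, and their summed level was 226 to 244 CPM in WT and 82.3 to 104 CPM in Hnrnpl-null. The oocyte transcription factors Nobox, Sohlh1 and Lhx8 were among them, at 10.5%, 20.5% and 19.5% of WT. So was Sycp3, a protein of the meiotic chromosome axis, at 26.8% of WT. The log2 fold changes of the 9 ran from -3.25 (Nobox) to -0.83 (Dazl), with a median of -1.74, beside -2.18 for Gja4. The germ cell helicase gene Ddx4 fell to 53.4% of WT and the RNA-binding protein gene Dazl fell to 56.2% of WT (edgeR adjusted p = 0.044 and 0.0096). The count depended on single libraries, with 5 of 9 called without Hnrnpl-null replicate 2, 6 without WT replicate 3 and 7 to 9 without each of the others, though all 9 were called without both libraries rich in Rn45s. Sycp1 and Figla also missed the threshold without Hnrnpl-null replicate 2 (edgeR adjusted p = 0.12 and 0.053), and Sycp1 without each WT library (0.052 to 0.079). Ddx4 no longer passed when Hnrnpl-null replicate 2 or a single WT library, whichever it was, stayed out of the fit (edgeR adjusted p between 0.066 and 0.16), or with the replicate block (edgeR adjusted p = 0.057). For Dazl the same held of WT replicate 3 and of Hnrnpl-null replicates 1 and 2, each left out alone (edgeR adjusted p between 0.054 and 0.073).

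Of 10 pregranulosa cell markers, Kitl, the ligand of the oocyte receptor Kit, rose and 9 were not called by edgeR, while DESeq2 called 2 higher and 1 lower and limma-voom 1 higher and 1 lower. Their summed level was 442 to 463 CPM in WT and 501 to 556 CPM in Hnrnpl-null. The mean of that sum went from 450 to 530 CPM, a smaller rise than that of Kitl alone, from 78.4 to 174 CPM. The median log2 fold change of the 10 markers was -0.04. Of 8 endothelial markers, 0 were called by edgeR, 4 had an unadjusted p below 0.05, and DESeq2 and limma-voom each called 2 lower and 1 higher. The summed endothelial level was 166 to 203 CPM in WT and 161 to 177 CPM in Hnrnpl-null, and without both libraries rich in Rn45s edgeR called 2 lower. The near-equal sums do not show how single markers moved, as the median log2 fold change of the 8 was -0.52. Kdr, with a WT mean of 80.8 CPM, made up a large part of the sum and went the other way (log2 fold change 0.35). Smooth muscle and pericyte markers summed to 181 to 226 CPM in WT and 207 to 225 CPM in Hnrnpl-null, with Des, which encodes the filament protein desmin, the 1 of 7 that edgeR called higher, beside 1 higher and 1 lower by DESeq2 and 2 higher and 1 lower by limma-voom. Des did not pass once a single library, whichever of the 6, stayed out (edgeR adjusted p between 0.056 and 0.15). The part of germ cell or endothelial abundance in the Gja4 value was not tested.

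Other cell types were also listed. Of 8 markers of the ovarian surface epithelium, a cell layer that itself carries cadherins, Msln, Upk3b and Krt19 rose, with a summed level of 414 to 499 CPM in WT and 518 to 678 CPM in Hnrnpl-null. Without Hnrnpl-null replicate 2 none of those 3 was called (edgeR adjusted p of 0.087 for Msln, 0.13 for Upk3b and 0.14 for Krt19), nor were they without WT replicate 2 (0.065, 0.11 and 0.14). Upk3b and Krt19 also lost their calls without WT replicate 3 (edgeR adjusted p of 0.12 and 0.14), Upk3b without Hnrnpl-null replicate 1 (0.061) and Krt19 without Hnrnpl-null replicate 3 (0.054). Among 8 stromal markers the collagen genes Col1a1, Col1a2 and Col3a1 and the proteoglycan gene Dcn rose, with a summed level of 8962 to 10354 CPM in Hnrnpl-null. Without Hnrnpl-null replicate 2 none of those 4 was called (edgeR adjusted p of 0.054 for Col1a1, 0.17 for Col1a2, 0.16 for Col3a1 and 0.082 for Dcn). Dcn also lost its call without any other library but WT replicate 1, and Col1a2 and Col3a1 without any other library but Hnrnpl-null replicate 3. Leukocyte markers summed to 47.0 to 55.9 CPM in WT and 563 to 696 CPM in Hnrnpl-null, and 6 of 7 tested rose, the granule genes Mpo and Elane and the blood cell genes Coro1a and Laptm5 among them. Erythroid markers summed to 25.0 to 38.5 CPM in WT and 33.7 to 78.5 CPM in Hnrnpl-null. Of 5 tested, Alas2 and Slc4a1 among them, edgeR called 0, with 3 at an unadjusted p below 0.05, while DESeq2 called 1 and limma-voom 2 higher. Mesonephric and Mullerian tube markers summed to 35.1 to 58.1 CPM in WT and 33.7 to 40.0 CPM in Hnrnpl-null. Of the 4 tested, Emx2 and Pax8 among them, edgeR, DESeq2 and limma-voom called 0, with 1 at an unadjusted p below 0.05. Hepatocyte markers summed to no more than 1.32 CPM in any library.

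Within each library, Gja4 and Cdh1 were set against Ddx4, which marks germ cells, and Gja4 against Pecam1, which marks endothelium. These reference genes were chosen after their values were seen, and 2 counts were added to each gene. The Gja4 to Ddx4 ratio of counts per kb was 0.385 to 0.565 in WT and 0.179 to 0.307 in Hnrnpl-null, so each Hnrnpl-null library was below each WT library. Ddx4 had a log2 fold change of -0.90, near the small end of the 9 germ cell markers (-3.25 to -0.83). Nobox, Lhx8 and Sohlh1 (-3.25, -2.36 and -2.29) fell more than Gja4 (-2.18), and the other germ cell markers fell less. Ratios of Gja4 or Cdh1 to those markers were not taken. The Gja4 to Pecam1 ratio was 0.523 to 0.649 in WT and 0.138 to 0.198 in Hnrnpl-null, again without overlap. Pecam1 is 1 of 8 endothelial markers, which did not move alike (median log2 fold change -0.52, Kdr 0.35, Egfl7 -0.73). Ratios of Gja4 to the other endothelial markers were not taken. In Hnrnpl-null replicate 3 Gja4 had 2 counts, as many as were added, and no other added number was tried for the ratios to Ddx4 and Pecam1. The Cdh1 to Ddx4 ratio was 0.134 to 0.274 in WT and 0.282 to 0.351 in Hnrnpl-null, where the groups just failed to meet and Hnrnpl-null was the higher.

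**Figure D3:**
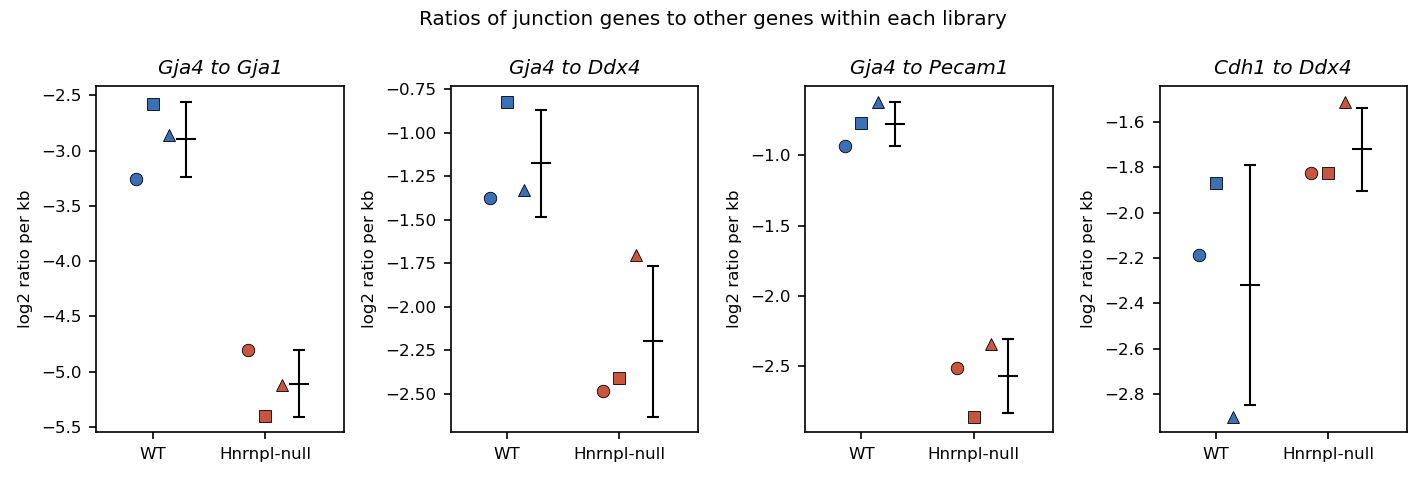
The log2 ratio of 2 genes within a library, in counts per kb (y axis), for 4 pairs of genes in WT (blue) and Hnrnpl-null (red), with circles, squares and triangles for replicates 1, 2 and 3 and the mean ± SD as a bar. The mean ratio of Gja4 is lower in Hnrnpl-null against Gja1 (-5.11 against -2.90 in WT), Ddx4 (-2.20 against -1.18) and Pecam1 (-2.57 against -0.77), and that of Cdh1 to Ddx4 is higher (-1.72 against -2.32). Among 9 germ cell markers, whose log2 fold changes ran from -3.25 to -0.83, Ddx4 stood at -0.90. Pecam1 is 1 of 8 endothelial markers, whose median log2 fold change was -0.52.

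The genes whose pattern over the 6 libraries was most like that of Gja4 were Adam8, Tmem178b and Ccno. Likeness was the root mean square difference of centred log2 CPM values among 9949 candidate genes, and it was 0.19 for Adam8, 0.19 for Tmem178b and 0.20 for Ccno. Adam8, a membrane metalloprotease gene, went from 8.48 ± 2.37 to 2.38 ± 0.977 CPM (SD, n = 3 each). Tmem178b went from 8.10 ± 0.737 to 2.10 ± 0.945 CPM, and Ccno, a cyclin gene, went from 16.9 ± 1.65 to 4.75 ± 2.39 CPM.

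Over 8 lists, 108 of 142 distinct genes were tested, 4 fell (3.70%) and 0 rose, beside 4.46% called in either direction among all genes. Taken by direction, 1.79% of all genes were called lower and 2.67% higher. Of the 108 genes, 24 (22.2%) had an unadjusted edgeR p below 0.05, beside 2746 of all 14849 genes. DESeq2 called 8 and limma-voom 10 lower with 0 higher, edgeR without both libraries rich in Rn45s called 8 lower and 1 higher of 116 tested, and edgeR without WT replicate 2 called 2 lower. The median log2 fold change was -0.07 over the lists (-0.13 to -0.02 with 1 library left out) and -0.01 over all genes.

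Among 22 cadherin genes, edgeR called 0 of 15 tested, 2 had an unadjusted p below 0.05, and DESeq2 and limma-voom each called 1 lower. Without both libraries rich in Rn45s, 18 were tested and edgeR called 2 lower and 1 higher. The median log2 fold change of the 15 was -0.51, and it rested on single libraries and on the filter. It was -0.08 without WT replicate 2, -0.24 without WT replicate 1, -0.19 without Hnrnpl-null replicate 3 and -0.02 with no filter. Cdh11, a mesenchymal cadherin, was the most abundant per kb, at 111 ± 10.2 (WT) and 117 ± 9.64 CPM (Hnrnpl-null; SD, n = 3 each). Cdh3, which encodes P-cadherin, was at 43.9 ± 8.23 and 47.4 ± 9.71 CPM. Both thus stood above Cdh1 and Cdh2 per kb.

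Among 23 connexin and pannexin genes 10 were tested, and Gja4 was the only one called. The median of the 10 was -0.25, and it moved to -0.03 without WT replicate 2, -0.50 without WT replicate 1 and -0.78 without Hnrnpl-null replicate 2. Of the 13 that were not tested, none had a mean above 1 CPM in either group. The arterial connexin gene Gja5 stood at 0, 1.16 and 1.93 CPM in the WT libraries (replicates 1 to 3) and at 0, 0.457 and 0 CPM in the Hnrnpl-null libraries, where the groups overlapped and the gene was not called (edgeR adjusted p = 0.31).

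Among 20 catenins and cytoplasmic adherens junction proteins, all tested, edgeR called Camsap3 lower, DESeq2 called 2 and limma-voom 3 lower, and the median was 0.08 (-0.0016 without Hnrnpl-null replicate 2). Camsap3 anchors the minus ends of microtubules, in epithelial cells at adherens junctions among other places. It stood at 36.1, 38.5 and 35.1 CPM in the WT libraries (replicates 1 to 3) and at 19.4, 18.0 and 23.1 CPM in the Hnrnpl-null libraries, well apart. Its log2 fold change was -0.89 ± 0.14 (SE), with an edgeR adjusted p of 0.0029.

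Among 13 desmosomal genes 7 were tested and Pkp2 fell, with a list median of -0.02 (-0.14 without Hnrnpl-null replicate 1 and -0.13 without WT replicate 1). Pkp2 encodes a plakophilin, which links desmosomal cadherins to keratin filaments through desmoplakin. It stood at 10.5, 11.5 and 11.3 CPM in the WT libraries (replicates 1 to 3) and at 4.68, 7.08 and 4.37 CPM in the Hnrnpl-null libraries. The groups did not overlap, and the log2 fold change was -0.998 ± 0.25 (SE, edgeR adjusted p = 0.036). Leaving out Hnrnpl-null replicate 1 or any 1 of the WT libraries ended the call (edgeR adjusted p of 0.073 to 0.14), and so did the replicate number as a block (edgeR adjusted p = 0.057).

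Among 18 transcription and splicing factors of the epithelial state, 16 were tested and edgeR called Esrp1 lower, with 3 lower by DESeq2 and by limma-voom and a list median of -0.16 (-0.28 to -0.15 with 1 library left out). Esrp1 encodes an epithelial splicing regulator, known in epithelial cells to control isoforms of junction genes, Ctnnd1 among them. It stood at 58.0, 53.1 and 63.5 CPM in the WT libraries (replicates 1 to 3) and at 20.4, 17.0 and 18.7 CPM in the Hnrnpl-null libraries. The gap between the groups was wider than the range within either. The log2 fold change was -1.64 ± 0.13 (SE, edgeR adjusted p = 7.9e-06). Counts per gene do not show which Ctnnd1 isoforms were made.

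The remaining 3 lists held no call by edgeR with the filter on low counts. Of 23 tested tight junction genes and partners of Epcam, 5 had an unadjusted p below 0.05, DESeq2 called 0 and limma-voom 1 lower. Among the most abundant of these per kb, the protease inhibitor gene Spint2 was at 49.7 ± 2.73 and 47.1 ± 5.06 CPM and F11r, which encodes a junctional adhesion molecule, at 64.5 ± 2.07 and 53.3 ± 3.21 CPM (WT and Hnrnpl-null, SD, n = 3 each). Of 7 tested nectins and nectin-like genes, 2 had an unadjusted p below 0.05 and both other tools called 0, while edgeR with no filter called 1 lower, Cadm4 (log2 fold change -2.02, edgeR adjusted p = 9.2e-06), which was at -2.03 and not called with the filter (edgeR adjusted p = 0.23) and at 0.60 without WT replicate 1 (edgeR adjusted p = 0.50). Nectin2 was at 78.6 ± 5.45 and 81.7 ± 12.5 CPM. Of 13 genes of cadherin cleavage and turnover, 2 had an unadjusted p below 0.05 and both other tools called 0, while edgeR with no filter called 1 higher. Adam10, the protease that sheds E- and N-cadherin, was at 106 ± 7.21 and 108 ± 6.94 CPM, and Ncstn, a subunit of the gamma-secretase complex, was at 54.6 ± 2.97 and 66.6 ± 1.36 CPM.

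**Figure D4:**
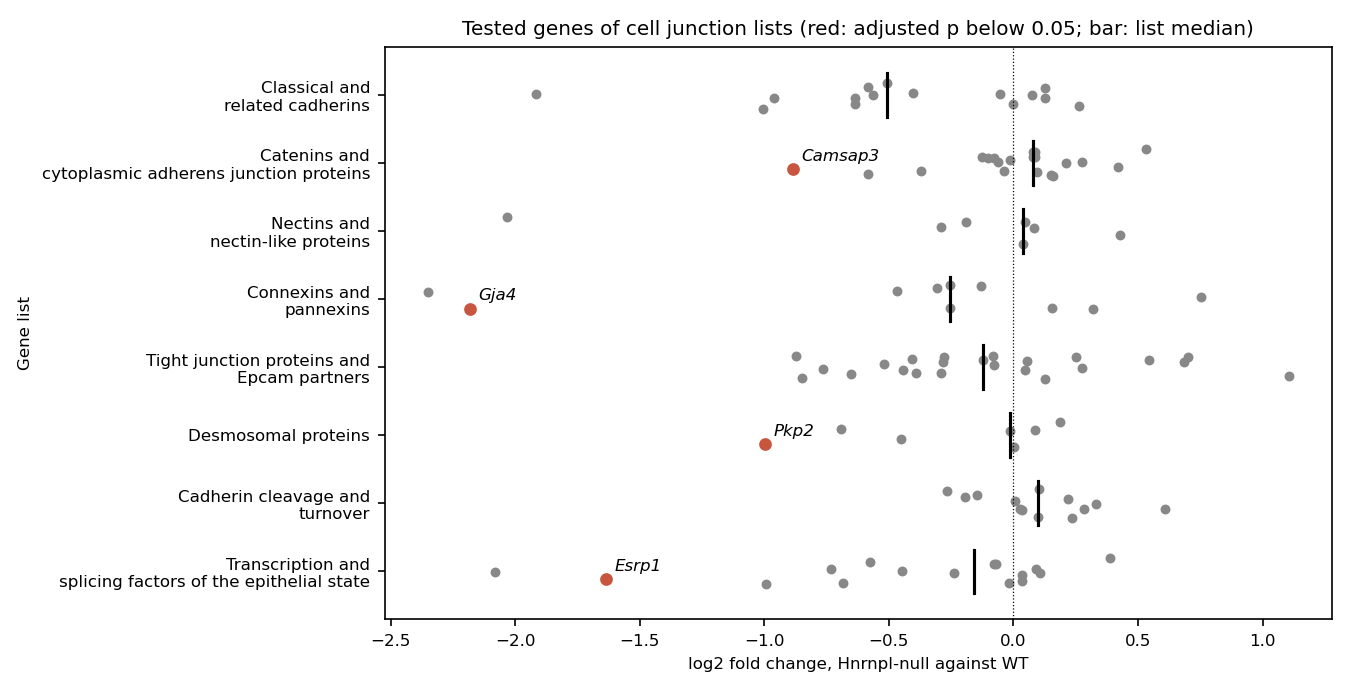
The log2 fold change of Hnrnpl-null against WT (x axis) for each tested gene of the 8 junction lists (y axis), with the list median as a black bar and vertical scatter for legibility only. Red points have an edgeR adjusted p below 0.05 and are Gja4, Camsap3, Pkp2 and Esrp1, all lower in Hnrnpl-null, while the list medians, which move with single libraries, lie between -0.51 (cadherins, -0.08 without WT replicate 2) and 0.10.

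The members lie on separate chromosomes apart from Cdh2 and Ctnna1. On mm10, Gja4 spans chr4:127311420-127314039 on the minus strand, Gja1 chr10:56377300-56390419 on the plus strand and Cdh1 chr8:106603350-106670247 on the plus strand. Cdh2 spans chr18:16588877-16809246 on the minus strand and Ctnna1 chr18:35118912-35254775 on the plus strand. Epcam spans chr17:87635979-87651127 on the plus strand, Ctnnb1 chr9:120933400-120960507 on the plus strand and Ctnnd1 chr2:84600781-84658977 on the minus strand. No exon of the 8 genes overlapped an exon of another gene in the table.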

How the data were processed

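The authors deposited 1 table of raw counts per gene with 1 column per library, in the layout of featureCounts per the file headers. The submitters' processing notes name featureCounts 2.0.6, STAR 2.7.11a and HISAT2 2.2.1, with mm10 as the build and no role or order. For annotation, strand and multiply mapped reads the setting is not given in the sources used here. Gene length, another measurement unit of the deposited table, is its summed exon length. Between 93.4% and 98.4% of counts from 1 to 20 were even per library, as when both mates of a pair are counted.

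The main test was the two-sided quasi-likelihood test of edgeR 4.0.16 under R 4.3.3 (filterByExpr, TMM, glmQLFit, glmQLFTest) on all 6 libraries with genotype as the only term, adjusted by Benjamini-Hochberg over 14849 genes and called below 0.05. Standard errors and 95% intervals come from the F statistic. CPM used TMM-scaled sizes, and log2 patterns a pseudocount of 0.5 CPM. The procedure was tested on simulated data. DESeq2 1.42.0, limma 3.58.1 (voom), other scalings and filters, and left-out libraries were alternatives. Replicates of a group differed by more than counting noise (on halved counts, chi-square divided by its degrees of freedom was at least 5.91).

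The members, lists and alternatives were chosen with earlier results of these data known. Named were all 8 members; of each list, up to 4 called genes with the smallest p or, with none called, the 2 most abundant per kb; and the 3 genes most like each called member, among those with a mean of at least 5 CPM and no gene model symbol. Gja5, Ddx4, Dazl, Figla, Sycp1, Stra8 and Pecam1 were chosen after their values were seen.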

Additional observations from a re-analysis of the deposited data

How the results depend on the processing

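Gja4 kept its direction in all 20 alternatives and its call in 18 of them, with a log2 fold change of -2.38 to -2.02. It was not called with library totals alone (-2.25), a scaling that Rn45s dominates and under which edgeR called 0 members and 4 genes in all (3 higher, 1 lower), or without WT replicate 2. Leaving out 1 library gave -2.38 to -2.02 for Gja4 (edgeR adjusted p of 0.0038 to 0.074), 0 to 1 members called lower, and 249 to 853 genes called (145 to 532 higher, 104 to 321 lower). No other member was called in any alternative. Leaving out 1 library also turned the sign of values near 0, with log2 fold changes of -0.021 to 0.30 for Cdh2, -0.013 to 0.32 for Epcam, -0.072 to 0.0074 for Ctnnb1, -0.039 to 0.28 for Cdh3, -0.070 to 0.12 for Nectin2, -0.15 to 0.0082 for Spint2, -0.016 to 0.086 for Adam10, -0.056 to 0.71 for Pax8 and, with WT replicate 1 deciding, -2.65 to 0.60 for Cadm4. With Rn45s left out and totals alone, Ctnnd1 was -0.0022, Cdh11 -0.0024, Adam10 -0.037 and Nectin2 -0.047. Nectin2 was also -0.013 by limma-voom, -0.029 with sample weights, -0.033 with totals alone and -0.015 without both libraries rich in Rn45s. None of these sign changes was a called value. Called genes numbered 1086 (643 higher, 443 lower) by DESeq2, 1273 (775 higher, 498 lower) by limma-voom, 1222 (757 higher, 465 lower) by voom with sample weights, 1104 (633 higher, 471 lower) with no filter, and 255 (123 higher, 132 lower) with Rn45s left out and totals alone. The cause was not tested. Libraries with the same number in their titles showed no pairing (correlations of deviations of -0.13, 0.11 and -0.08, beside -0.12 to 0.16 between other numbers). The check rests on few libraries, WT replicate 1 and Hnrnpl-null replicate 3 being rich in Rn45s, and cannot exclude a pairing. The replicate block gave 444 called genes (265 higher, 179 lower) with Gja4 at -2.22 (edgeR adjusted p = 0.019). Gja4 and Cdh1 rest on 2 and 10 counts in Hnrnpl-null replicate 3.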

Other observations

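Some junction genes that edgeR did not call with the filter on low counts took their group mean from 1 library. Cadm4, a nectin-like adhesion gene, was at 256 CPM in WT replicate 1 and at 13.8 and 17.0 CPM in WT replicates 2 and 3, against 15.4, 14.3 and 46.9 CPM in the Hnrnpl-null libraries. The 2 highest libraries are those richest in Rn45s. Cdh16, a cadherin of kidney and other tubule epithelia, was at 15.5 CPM in WT replicate 2 and at 1.10 to 1.94 CPM in the other 5 libraries. Gja10, a connexin gene below the filter, stood at 2.11, 0.332 and 0.551 CPM in the WT libraries (replicates 1 to 3) and at 0, 0.152 and 0 CPM in the Hnrnpl-null libraries. Cdh5, the cadherin of endothelium, was not such a case. Its levels were 25.6, 39.7 and 27.2 CPM in the WT libraries (replicates 1 to 3) and 19.8, 21.7 and 17.5 CPM in the Hnrnpl-null libraries. The groups did not overlap, as for 13.2% of all tested genes in that direction, and Cdh5 was not called (edgeR adjusted p = 0.065). These 4 genes were chosen after their values were seen.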
